A study of Mus musculus with 10 samples.

Results

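NF-κB and inflammatory cytokine genes were examined in E0771 breast tumors by single-cell RNA sequencing. The set held 10 of the 31053 genes counted, taken by symbol: the NF-κB subunits Nfkb1, Nfkb2, Rela, Relb and Rel, the inhibitors Nfkbia and Tnfaip3, and the cytokines Il1b, Tnf and Cxcl1. E0771 is a mouse mammary carcinoma line that grows in C57BL/6 mice. The cells were injected into the mammary fat pad of female mice aged 16 weeks, and tumors were taken at day 21. EC-AGO1-KO mice (KO) carried floxed Ago1 alleles and a Cre transgene driven by the VE-cadherin promoter, which acts in endothelial cells. Cre from this promoter is also known to act in some blood cells. For these mice the study states, citing earlier work, that deletion was confined to endothelial cells and absent in monocytes. The WT littermates were the controls, and the injected tumor cells carried no floxed allele. The 5 WT libraries held 5 tumors and the 5 KO libraries held 7, because KO 2+3 and KO 5+6 pooled 2 small tumors each. Batch 1 held 1 library per genotype and batch 2 held 4.

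NF-κB is a family of dimeric transcription factors. In resting cells the dimers are held in the cytoplasm by IκB proteins, and receptors for TNF, IL-1 and microbial products release them through the IκB kinase complex. Nfkbia, which encodes IκBα, and Tnfaip3, which encodes the ubiquitin-editing enzyme A20, are themselves induced by NF-κB and shut the signal down. In tumors the pathway is known in myeloid cells, where it drives Il1b and Tnf, and in dendritic cells, whose maturation involves RelB and c-Rel.

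In GRCm38 (mm10, GENCODE M21) the inhibitor genes lie at chr12:55489410-55492647 (Nfkbia) and chr10:19000910-19015657 (Tnfaip3). The subunit genes lie at chr3:135584655-135691547 (Nfkb1), chr19:46304320-46312385 (Nfkb2), chr19:5637483-5648130 (Rela), chr7:19606217-19629438 (Relb) and chr11:23736847-23770970 (Rel). The cytokine genes lie at chr2:129364570-129371139 (Il1b), chr17:35199381-35202007 (Tnf) and chr5:90891241-90893115 (Cxcl1). All 10 are protein-coding. The κB consensus, a motif of 10 bases bound by these dimers, was searched on both strands of the 250 bases before the RefSeq starts of the genes (GRCm38.p6). It occurred in 7 of 11 windows, which covered 8 of the 10 genes, and in 7.25% of 32851 windows of all genes. Windows for Nfkb1 and Relb were not used here. Of the windows of the pathway genes described further on, 15 of 51 held it. A match gives the letters only and says nothing of binding in these tumors. The windows of Nfkbia, Rel and Cxcl1 are shown because they place the motif before an inhibitor, a subunit and a chemokine whose levels are described here. They are written 5′ to 3′ on the gene's strand, with the bases of κB matches in capitals, and end before the first base of the annotated gene body.
Nfkbia (chr12:55492648-55492897, minus strand): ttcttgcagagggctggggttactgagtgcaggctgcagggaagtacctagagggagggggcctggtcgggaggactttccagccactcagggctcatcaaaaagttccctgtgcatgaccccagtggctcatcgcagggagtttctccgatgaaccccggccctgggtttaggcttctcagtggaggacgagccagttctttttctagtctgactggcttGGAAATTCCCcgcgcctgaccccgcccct
Rel (chr11:23770971-23771219, minus strand): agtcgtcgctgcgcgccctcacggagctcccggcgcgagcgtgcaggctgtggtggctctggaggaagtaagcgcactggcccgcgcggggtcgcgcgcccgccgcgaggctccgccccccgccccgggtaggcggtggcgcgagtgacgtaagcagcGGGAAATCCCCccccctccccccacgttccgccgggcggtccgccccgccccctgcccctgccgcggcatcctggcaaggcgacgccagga
Cxcl1 (chr5:90890995-90891240, plus strand): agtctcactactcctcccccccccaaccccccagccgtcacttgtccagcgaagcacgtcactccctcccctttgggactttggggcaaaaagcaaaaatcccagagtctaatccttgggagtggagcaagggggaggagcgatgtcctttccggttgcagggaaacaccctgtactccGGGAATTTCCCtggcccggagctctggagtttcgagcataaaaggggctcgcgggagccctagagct
The Nfkbia match began 29 bases before the start, and the Rel and Cxcl1 stretches each joined overlapping matches that began 92 and 71 bases before it. The windows of Il1b, Tnf and Rela held no match.

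Levels were read from unique molecular identifiers (UMIs), each of which stands for 1 captured RNA molecule, summed over the cells of a class in a library and given per 1000000 UMIs of that sum (CPM). The libraries held 8323896 to 10591577 UMIs, and 65298 barcodes passed the limits on cells. Cells of batch 1 had a median of 3862 to 4049 UMIs and those of batch 2 of 595 to 1142, depending on the library. Cells were grouped by clustering, without the 10 genes, and named from marker lists. The tumor-like class held 942 cells in batch 1 and 46578 in batch 2, the macrophage-like class 514 and 1339, the monocyte-like class 179 and 247, and the dendritic-like class 58 and 614. Immune classes of batch 2 were shallow and held RNA of tumor genes: the 8 tumor markers summed to 4872 to 11010 CPM in macrophage-like cells of batch 2 and to 1707 and 1718 CPM in batch 1, against 18270 to 21630 CPM in tumor-like cells of batch 2. A batch 2 cluster of 8038 cells first met the limits for tumor-like cells, with 4 tumor markers passing. It was left unnamed because the dendritic marker Fscn1 and no tumor marker was among its 10 leading genes. The batch 2 clusters kept as tumor-like also had no tumor marker among theirs, so Fscn1 alone set this cluster apart. It took 27.4% of the cells of WT 4 and 6.41 to 12.8% of the other batch 2 libraries. Ago1 could not serve as a check of the labels, since endothelial-like cells held no Ago1 UMI in either genotype, which allows up to 49.3 CPM in WT and 32.0 CPM in KO.

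Of the subunits, Rel had the widest differences between classes. Rel encodes c-Rel, a transactivating subunit best known in lymphocytes and myeloid cells. In dendritic-like cells of batch 2, Rel stood at 1992, 1795, 1103 and 2022 CPM in WT 1, 3, 4 and 5 and at 1361, 2134, 1433 and 1735 CPM in KO 1, 2+3, 4 and 5+6. The genotypes overlapped, and in all 8 libraries the dendritic-like level was above the macrophage-like level of 520 to 1011 CPM. In tumor-like cells Rel lay between 50.9 and 80.4 CPM, with no overlap with any of the 3 immune classes. In batch 1 the order was the same, from 1501 CPM in WT and 901 CPM in KO in dendritic-like cells through 547 and 609 CPM in monocyte-like cells and 264 and 276 CPM in macrophage-like cells to 25.1 and 25.9 CPM in tumor-like cells. Monocyte-like and dendritic-like levels overlapped in batch 2, with Rel at 338 to 2158 CPM in the monocyte-like sums of at least 10 cells. Empty droplets, barcodes with at most 50 UMIs that carry free RNA, held 69.9 to 156 CPM of Rel in batch 2. The tumor-like level was below that of the empty droplets of its own library in 8 of 8 batch 2 libraries, so Rel in batch 2 tumor-like cells was not above background. The study's methods list Rel and Relb among dendritic cell markers, and they were not used here to name cells.

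Relb, the subunit of the alternative NF-κB pathway, was also highest in dendritic-like cells of batch 1, at 500 CPM in WT (24 UMIs, exact Poisson 95% interval 320.5 to 744) and 430 CPM in KO (31 UMIs, 292 to 610). These intervals cover counting error only. The other 3 classes of batch 1 lay between 34.0 and 80.0 CPM. In batch 2, dendritic-like Relb was 0 to 111 CPM in WT and 31.6 to 314 CPM in KO and rested on at most 10 UMIs per library. It exceeded the tumor-like level in 7 of 8 libraries of batch 2, and the ranges overlapped.

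Nfkb1, which encodes p105 and its product p50, was more even. Nfkb1 stood at 101 to 202 CPM in tumor-like cells and 138 to 214 CPM in macrophage-like cells over the 10 libraries, and these ranges overlapped. Dendritic-like levels were 195 to 500 CPM and above the tumor-like level of the same library in 10 of 10. Nfkb2 and Rela, which encode p100 with its product p52 and the transactivating subunit p65, had few UMIs. In tumor-like cells Rela was 13.1 to 21.8 CPM in batch 2 and 43.2 to 50.3 CPM in batch 1, and Nfkb2 was 3.05 to 9.67 and 20.2 to 22.5 CPM. Macrophage-like cells of batch 2 held 1 Nfkb2 UMI, in KO 5+6 at 19.2 CPM, and 0 in the other 7 libraries. The batches differed in depth per cell and in other ways the labels do not give, and these cannot be told apart.

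Of the inhibitors, Nfkbia was present in all 4 classes and was higher in immune than in tumor-like cells in most libraries. In tumor-like cells of batch 2, Nfkbia was 97.2, 137, 160 and 91.3 CPM in WT 1, 3, 4 and 5 (121 ± 32.6, SD, n = 4) and 141, 189, 115 and 133 CPM in KO 1, 2+3, 4 and 5+6 (145 ± 31.5, SD, n = 4). These genotypes overlapped, and KO 2+3 was the highest library. In macrophage-like cells Nfkbia was 316 CPM in WT and 289 CPM in KO in batch 1, and 178 to 526 CPM in WT and 62.4 to 227 CPM in KO in batch 2. The highest of these, WT 4, rested on 6 UMIs in 33 cells. Macrophage-like levels exceeded tumor-like levels of the same library in 9 of 10. Empty droplets held 79.3 to 137 CPM of Nfkbia, and 6 of 8 tumor-like sums of batch 2 were above those of their own library.

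Tnfaip3 separated tumor-like from macrophage-like and dendritic-like cells without overlap in batch 2. Tumor-like cells held 11.8 to 25.7 CPM of Tnfaip3, macrophage-like cells 71.4 to 268 CPM and dendritic-like cells 64.9 to 194 CPM. The lowest macrophage-like and dendritic-like values rested on 4 UMIs (WT 3) and 1 UMI (WT 4). Monocyte-like levels did overlap, and the tumor-like level was the higher in 3 of 8 libraries, WT 4 with 7 monocyte-like cells included. In batch 1 the levels were 9.82 and 7.90 CPM in tumor-like cells of WT and KO and 174 and 150 CPM in macrophage-like cells. Dendritic-like cells of batch 1 held 41.7 CPM in WT and 55.4 CPM in KO, on 2 and 4 UMIs. The tumor-like level was below that of empty droplets in 8 of 8 libraries of batch 2, where droplets held 18.0 to 47.9 CPM.

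Of the cytokines, Il1b and Tnf were higher in macrophage-like and monocyte-like than in tumor-like cells of batch 1, and Cxcl1 was highest in fibroblast-like cells. Il1b, which encodes the pro-inflammatory cytokine IL-1β, was highest in monocyte-like cells of batch 1, at 1947 CPM in WT (292 UMIs, exact Poisson 95% interval 1730 to 2184) and 1491 CPM in KO (257 UMIs, 1314 to 1685). Macrophage-like cells of batch 1 held 658 and 607 CPM of Il1b, and dendritic-like cells 980 and 360 CPM. In batch 2 the macrophage-like Il1b level was 0 to 250 CPM in WT and 50.7 to 114 CPM in KO, below both libraries of batch 1. Monocyte-like cells of batch 2 held 17 Il1b UMIs in WT, 13 of them in WT 5 at 1476 CPM, and 22 in KO over 94.8 to 538 CPM. In tumor-like cells Il1b stood at 0.290 to 2.88 CPM, below the 11.7 to 29.4 CPM of empty droplets in all 10 libraries.

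Tnf, which encodes the cytokine that signals through the TNF receptors, stood at 193 CPM (WT) and 143 CPM (KO) in macrophage-like cells of batch 1, and at 227 and 249.5 CPM in monocyte-like cells. In macrophage-like cells of batch 2, Tnf ranged from 0 to 263 CPM on at most 8 UMIs per library. Tumor-like cells held 1.74 to 7.96 CPM of Tnf, below empty droplets in 10 of 10 libraries. Cxcl1, a neutrophil-attracting chemokine, had 156 UMIs in all cells. Of these, 59 were in fibroblast-like cells, a class of 24 cells in batch 1 and 836 in batch 2, and 64 were in macrophage-like cells. Fibroblast-like Cxcl1 was 341 CPM in WT and 217 CPM in KO in batch 1, the latter over 9 cells, and 0 to 78.2 CPM in batch 2. Macrophage-like cells held 50.4 and 30.9 CPM in batch 1, and 1 UMI over the 8 libraries of batch 2. No Cxcl1 UMI was found among 87822 UMIs of monocyte-like cells of batch 2, which allows up to 34.2 CPM.

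**Figure D1:**
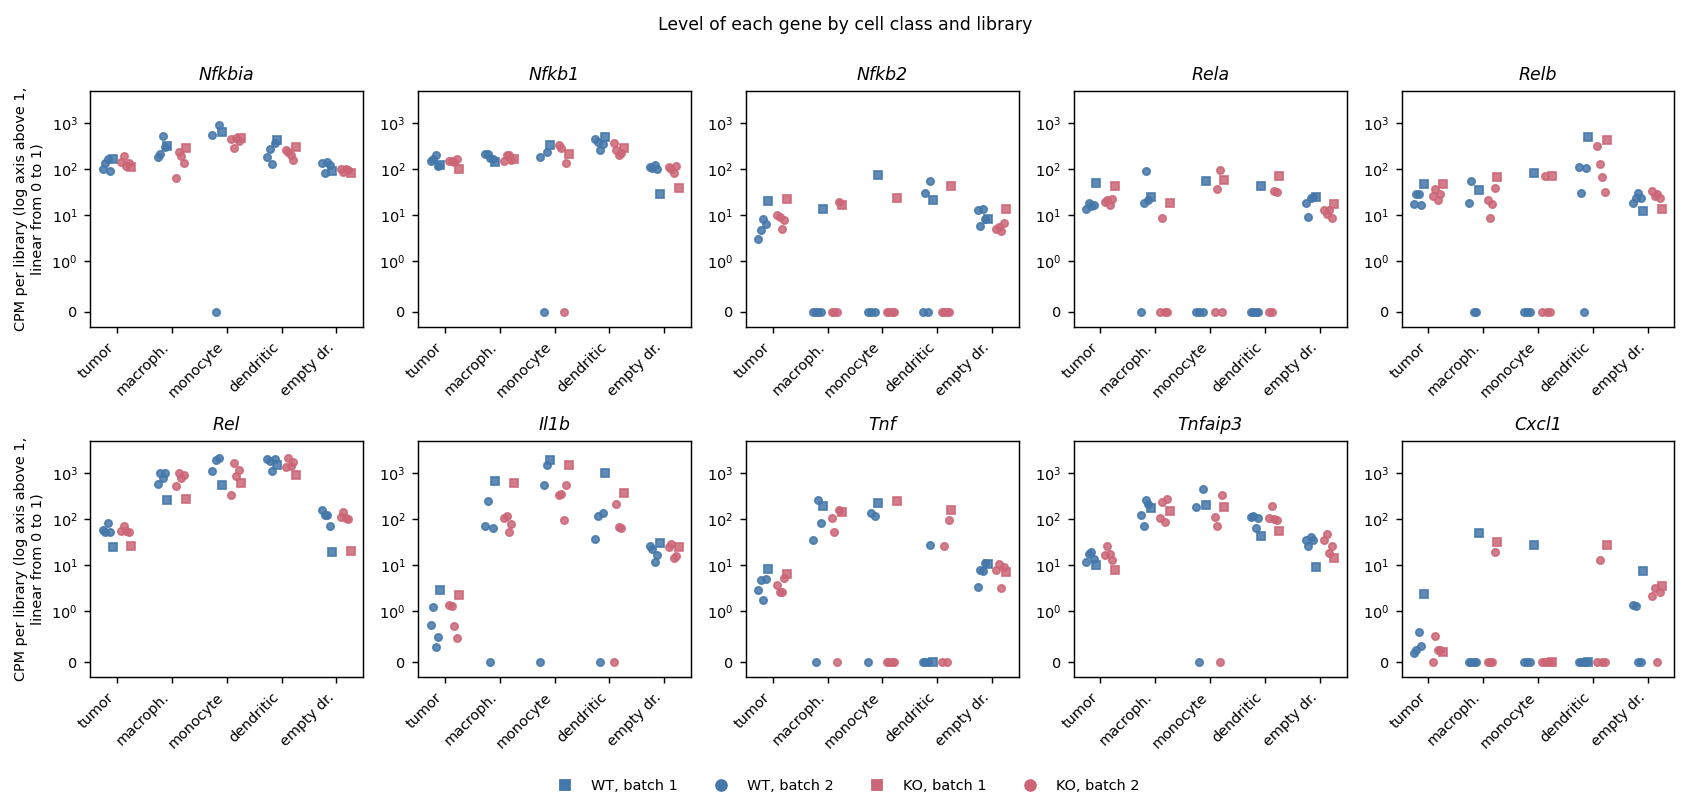
Level of each gene in CPM (vertical axis, logarithmic above 1 and linear from 0 to 1) in the 4 cell classes and in empty droplets, with 1 point per library, WT in blue and KO in red, batch 1 as squares and batch 2 as circles, and sums of fewer than 10 cells left out. Rel rises from 50.9 to 80.4 CPM in tumor-like cells of batch 2 to 1103 to 2134 CPM in dendritic-like cells, and Il1b in tumor-like cells stays at or under 2.88 CPM.

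Among tumor-like cells of batch 2, a cluster of 6585 cells held more Nfkbia and Tnfaip3 than the rest in every library. The cluster was led by Gm17268, Ccl2, which encodes a monocyte-attracting chemokine, and Nfkbia, and Tnip1, which encodes a partner of A20, was also among its 10 leading genes. It was picked as the batch 2 tumor-like cluster with the highest Nfkbia, so its higher Nfkbia follows partly from that choice. Because the cluster was also found on the same cells, its values are a description with no test. Nfkbia in the cluster was 229.5 to 273.8 CPM in WT and 267 to 376 CPM in KO, against 76.0 to 139.5 and 95.2 to 132 CPM in the other tumor-like cells of the same libraries. The cluster was 1.77 to 3.60 times higher in Nfkbia, with a median of 2.65, and no library of the other cells reached the lowest cluster value. Tnfaip3 was 26.2 to 43.5 CPM in the cluster and 8.30 to 20.4 CPM outside it, a median of 2.69 times higher. Relb, Rel and Nfkb1 were higher in the cluster in 8 of 8 libraries, by medians of 1.52, 1.34 and 1.22 times. Tnf was higher in 5 of 8, Rela in 3 of 8 and Nfkb2 in 2 of 8, so the rise was not shared by all 10 genes. Il1b and Cxcl1 had 8 and 5 UMIs in the cluster. In the whole tumor-like class of batch 2, Rel and Tnfaip3 were above empty droplets in 0 of 8 libraries. Relb was above them in 3 of 8 and Nfkb1 in 8 of 8. The droplets held 17.9 to 33.0 CPM of Relb. Ccl2 itself was 2170 to 3526 CPM in the cluster and 74.3 to 173 CPM outside it. The cluster made up 7.65 to 23.0% of the tumor-like cells of a library, 13.2 ± 5.08% in WT and 15.7 ± 5.03% in KO (SD, n = 4 each, two-sided exact permutation p = 0.543, where the smallest possible p is 0.0286).

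**Figure D2:**
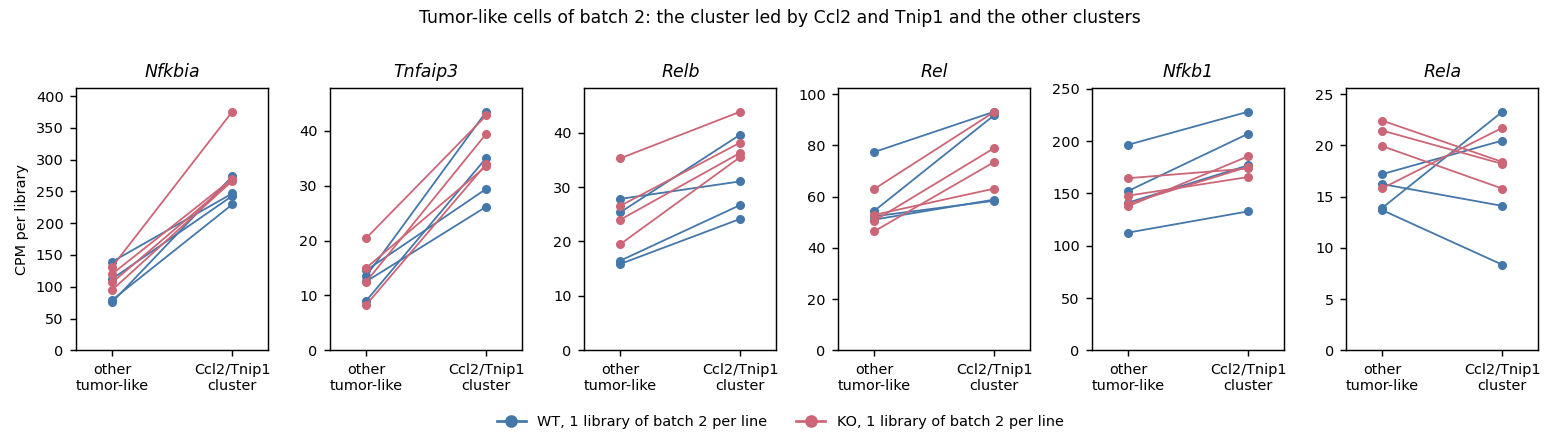
CPM (vertical axes, from 0) of 6 genes in 1 batch 2 tumor-like cluster (labelled Ccl2/Tnip1) and in the other tumor-like cells. Each line joins the values of 1 library, WT in blue and KO in red. The cluster was picked for the highest Nfkbia, and its leading genes include Gm17268, Ccl2, Nfkbia and Tnip1. Nfkbia and Tnfaip3 rise in all 8 libraries, by medians of 2.65 and 2.69 times, while Rela rises in 3 of 8.

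The dendritic-like class of batch 2 consisted of 2 clusters. The first had 462 cells with Xcr1 and Clec9a among its markers, the second 152 cells with Ccr7, Fscn1, Flt3 and Ccl22. Zbtb46 was a marker of both. Xcr1 and Clec9a are known from cross-presenting dendritic cells, and Ccr7, Fscn1 and Ccl22 from mature migrating ones. Again these are descriptions without a test. At clustering resolution 0.5 the dendritic-like class of batch 2 held 157 cells. A cluster of 365 cells, led by Htr7, Gm2a and Cd74 like the Xcr1 cluster, was then named monocyte-like. The name given to such cells thus depended on the resolution. Rel was higher in the Ccr7 cluster in 7 of 8 libraries, with a median of 2630 against 1291 CPM. Relb was higher there in 6 of 8 libraries, with medians of 169 and 19.7 CPM on 17 and 10 UMIs in all. Il1b went the other way, at 40.15 CPM (3 UMIs) in the Ccr7 cluster and 136.2 CPM (27 UMIs) in the Xcr1 cluster with libraries pooled. Tnfaip3 was lower in the Ccr7 cluster in 6 of 8 libraries, on 7 UMIs there and 28 in the Xcr1 cluster. Pooled, Tnfaip3 was at 93.7 and 141.3 CPM, and 5 of 8 libraries of the Ccr7 cluster held no UMI of it. Nfkb1 was higher in the Ccr7 cluster in 5 of 8 libraries and Nfkbia in 3 of 8. The single dendritic-like cluster of batch 1 passed on markers of both kinds. The mix of clusters thus differed between batches, and its part in the Relb and Il1b levels was not tested.

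**Figure D3:**
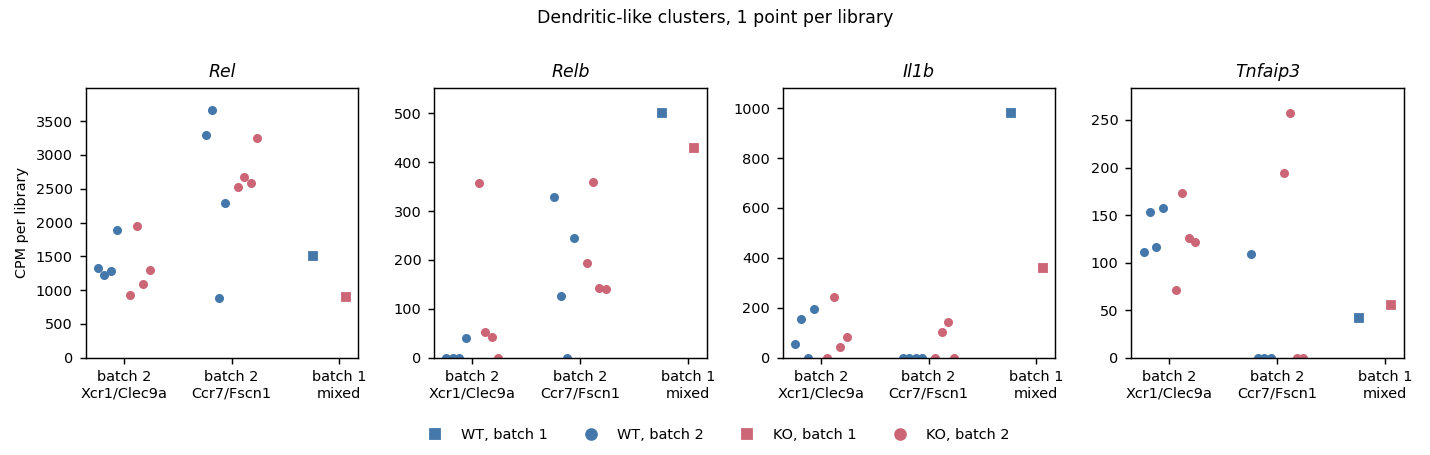
CPM (vertical axes, from 0) of Rel, Relb, Il1b and Tnfaip3 in the 3 dendritic-like clusters, with 1 point per library, WT in blue and KO in red, batch 1 as squares and batch 2 as circles. Rel has a median of 2630 CPM in the Ccr7/Fscn1 cluster and 1291 CPM in the Xcr1/Clec9a cluster. Il1b is at 0 in 6 of 8 libraries of the former, where it has 3 UMIs in all.

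The genes whose levels most resembled those of the NF-κB genes were ranked by Pearson's r over 39 sums of a library and class, after each library's mean was removed. The sums share libraries, depth and free RNA, and the ranking is a description. Rel was closest to Gm2a (r = 0.98), Dock10 (0.97) and Epsti1 (0.97), Nfkb1 to Ostf1 (0.90) and Wipf1 (0.85), and Relb to Icosl (0.85), which encodes the ligand of ICOS. Il1b was closest to Pim1 (0.85), B2m (0.85) and Ctss (0.84). Tnfaip3 was closest to Slfn2 (0.86), Tnf to Ftl1 (0.76) and Nfkbia to Pag1 (0.77). Rela and Nfkb2 were closest to Nub1 (0.79) and Ap1g2 (0.81). Cxcl1, with 96 UMIs in the 4 classes, was not ranked.

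The comparison of KO with WT asked whether deletion of Ago1 in the endothelium went with a change of these genes in tumor and myeloid cells. It was made in each class on the summed UMIs with edgeR's quasi-likelihood test, with batch as a term and adjustment over all genes tested. No NF-κB or cytokine gene passed an adjusted p of 0.05 in any class or in all cells together. The test covered 8 of the 10 genes in tumor-like cells, 6 in macrophage-like, 2 in monocyte-like, 5 in dendritic-like and 10 in all cells, and the others were too low to enter. Of all genes, 0% of 12541 were called in tumor-like cells, 0% of 2246 in macrophage-like, 0.311% of 322 in monocyte-like, 0% of 1306 in dendritic-like and 0% of 14181 in all cells. At an unadjusted p under 0.05 the counts of genes were 668, 124, 15, 86 and 1314. DESeq2 called 0 genes in each class and 2 in all cells (0.0073%). edgeR without its limit on low counts called 38, 10, 1, 2 and 242 genes (0.144%, 0.0542%, 0.00784%, 0.0143% and 0.884%), and by neither tool was an NF-κB or cytokine gene among them. In batch 2, no gene of the set had WT and KO libraries whose CPM did not overlap, in any class, while 3.01%, 3.52%, 4.97%, 3.45% and 4.71% of all genes did. The samples are separate tumors or pools of tumors from littermates.

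In tumor-like cells the log2 fold changes of KO over WT ran from -0.16 for Tnf to 0.39 for Nfkb2, 5 positive and 3 negative, with a median of 0.07 against 0.01 for all genes tested. Their 95% intervals all included 0 and lay between -0.78 and 0.92, and Nfkbia, at 0.06 (SE 0.19), had an interval of -0.34 to 0.45. The estimate for Nfkb2 was 0.39 (SE 0.25, edgeR adjusted p = 0.905). Nfkbia and Tnfaip3 turned to -0.14 and -0.02 without the pooled libraries KO 2+3 and KO 5+6. With 1 library left out, Nfkb2 ran from 0.21 (without WT 1) to 0.51 (without WT 4) and Tnf from -0.35 (without KO 5+6) to -0.02 (without WT 5). In these cells of batch 2, the UMIs of 10 stress and immediate-early genes such as Fos and Jun were summed. The sums were 286 to 470 CPM in WT and 472 to 657 CPM in KO, without overlap. Of the 9 tested, 8 had estimates above 0 and none was called, with Fosb at 0.87 (SE 0.26). The heat shock gene Hspa1b went the other way, at -0.82 (SE 0.26). The part of these genes in the estimates was not tested.

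In macrophage-like cells the 6 estimates were all below 0, with a median of -0.18 against -0.04 for all genes, and none was called. Nfkbia had the largest, at -0.46 (SE 0.25, 95% interval -0.95 to 0.04, edgeR adjusted p = 0.924). It stayed negative with each library left out, between -0.62 and -0.35. Il1b stood at -0.27 (SE 0.28), Tnf at -0.31 (SE 0.37), Rel at -0.08 (SE 0.19), Tnfaip3 at -0.05 (SE 0.27) and Nfkb1 at -0.01 (SE 0.24). The direction of the last 3 and of Tnf depended on single libraries. With 1 library left out, Tnfaip3 turned positive in 5 of 10 fits, Nfkb1 in 4 of 10, Rel in 2 of 10 and Tnf in 2 of 9, the last without WT B1 (0.27) or KO B1 (0.28). Il1b stayed negative but was -0.03 without WT 3. In the same cells of batch 2, tumor markers summed to 7630 to 11010 CPM in WT and 4872 to 7612 CPM in KO, and the 10 stress and immediate-early genes summed to 925 to 2189 CPM in WT and 2366 to 3142 CPM in KO, without overlap in either case. Their part in the estimates was not tested. Such sums were computed for every marker list in each class and in all cells. Only some are given here, without the share of all such sums that did not overlap. The test of the difference between the macrophage-like and tumor-like effects called 0% of 13895 genes, with 327 at an unadjusted p under 0.05, and gave -0.61 (SE 0.46, adjusted p = 1) for Nfkbia.

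In monocyte-like cells, only Il1b and Rel could be tested, without WT 4, which had 7 such cells. Il1b was lower in KO by estimate, at -0.69 (SE 0.35, 95% interval -1.37 to -0.0053, edgeR adjusted p = 0.985). The libraries behind it held 1947 CPM against 1491 CPM in batch 1, and 0, 549 and 1476 CPM in WT against 338, 356, 94.8 and 538 CPM in KO in batch 2. The WT values of batch 2 lay on both sides of the KO values, and without WT 5 the estimate was -0.33. Without either library of batch 1 it was -1.02 or -1.03. Rel stood at -0.30 (SE 0.28), and between -0.585 and -0.16 with 1 library left out. The gene called in this class was Pvt1, a tumor marker, at 1.40 (SE 0.36, edgeR adjusted p = 0.0353). In batch 2, WT 1, 3 and 5 held 739, 2331 and 568 CPM of Pvt1 on 4, 17 and 5 UMIs, and KO libraries 3034 to 4277 CPM. WT 4, which was left out, held 7132 CPM on 28 UMIs, above each of these KO libraries.

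In dendritic-like cells, Nfkb1 was at -0.59 (SE 0.30, 95% interval -1.20 to 0.01, edgeR adjusted p = 0.783). Its WT levels were 500 CPM in batch 1 and 443, 383, 260 and 346 CPM in batch 2, and its KO levels were 277 CPM and 366.5, 259, 195 and 221 CPM. Most KO libraries were lower, yet KO 1 lay above WT 4 and WT 5. Il1b was at -0.55 (SE 0.41), and this direction rested on batch 1, since without WT B1 or KO B1 the estimate was 0.43 or 0.47. Without KO 2+3 it was -1.18. Nfkbia stood at -0.30 (SE 0.33), Rel at -0.17 (SE 0.22) and Relb at 0.27 (SE 0.43). Without WT B1 or KO B1, Rel was -0.02 or -0.03 and Relb 0.80 or 0.79, and without KO 1 Relb was 0.09. Monocyte markers, 1 of several marker lists summed, stood at 239 to 471 CPM in WT and 599.5 to 1100 CPM in KO in these cells of batch 2. These ranges did not overlap, and the part of these markers was not tested.

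In all cells together, 7 estimates were above 0 and 3 below, from -0.12 for Cxcl1 to 0.33 for Tnfaip3, with a median of 0.20 against 0.00 for all genes. Relb was at 0.26 (SE 0.16, edgeR adjusted p = 0.640) and Rel at 0.25 (SE 0.19). Without KO 2+3, Tnfaip3 and Rel were -0.0022 and -0.01. The stress and immediate-early genes summed to 306 to 521 CPM in WT and 535 to 772 CPM in KO of batch 2, without overlap, and their part was not tested. In such sums, more cells of a class and more RNA per cell cannot be told apart.

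**Figure D4:**
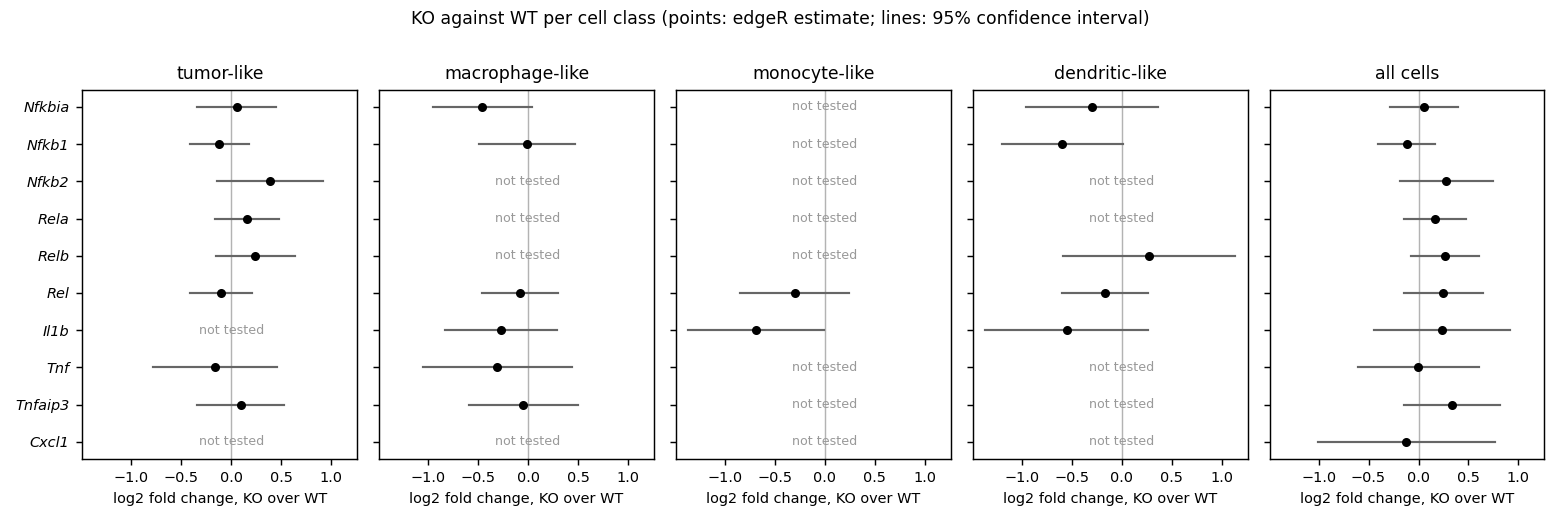
log2 fold change of KO over WT (horizontal axes) for each gene tested in the 4 classes and in all cells, with points for the edgeR estimate and lines for the 95% confidence interval. All intervals include 0 except that of Il1b in monocyte-like cells, which ends at -0.0053 and has an adjusted p of 0.985.

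The rest of the pathway was read from 3 lists of 55 genes, with 16 receptors and adaptors, 11 kinases and inhibitors and 28 target genes. Of these, 36 were tested in tumor-like cells, 13 in macrophage-like, 2 in monocyte-like, 7 in dendritic-like and 48 in all cells, and 0 rose or fell in any of them at an adjusted p of 0.05 in edgeR. At an unadjusted p under 0.05 there were 2, 0, 1, 1 and 7. Of all genes tested, 668 of 12541, 124 of 2246, 15 of 322, 86 of 1306 and 1314 of 14181 passed that limit. The median log2 fold change over the 3 lists was 0.09 in tumor-like cells, -0.14 in macrophage-like, 0.08 in dendritic-like and 0.17 in all cells, against 0.01, -0.04, 0.02 and 0.00 for all genes tested. In tumor-like cells the largest estimates were those of Cxcl2, a neutrophil-attracting chemokine, at -1.07 (SE 0.53), Ccl5, which attracts T cells, at 0.66 (SE 0.22), and Map3k14, the kinase of the alternative pathway, at 0.39 (SE 0.19). In macrophage-like cells they were Ier3 at -0.57 (SE 0.33), Ccl5 at 0.52 (SE 0.33) and the adhesion molecule Vcam1 at -0.43 (SE 0.28). In monocyte-like cells Cxcl2 stood at -0.74 (SE 0.37) and Ccl2 at -0.36 (SE 0.29). In all cells the largest were Il6 at 0.99 (SE 0.30), Ccl5 at 0.81 (SE 0.21) and Cd83 at 0.67 (SE 0.30).

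Ccl2 in dendritic-like cells came nearest to the threshold, at 1.77 (SE 0.43, 95% interval 0.91 to 2.64, edgeR adjusted p = 0.0722). Ccl2 was at 0 UMIs in WT and 610 CPM (44 UMIs) in KO in batch 1, and at 111, 294, 64.9 and 133 CPM in WT and 681, 246, 423 and 158 CPM in KO in batch 2. In batch 2 the WT and KO libraries overlapped. All 44 UMIs of batch 1 were in 1 of 32 cells, so they describe that cell and not the KO class. The cell held 4134 UMIs, against a median of 1969.5 in the dendritic-like cells of batch 1, and doublets were not removed. Without this cell, left out after the data were seen, Ccl2 was at 1.03 (SE 0.49, edgeR adjusted p = 0.669). With 1 library left out, the estimate ran from 1.01 without WT B1 to 2.53 without WT 3. The edgeR adjusted p ran from 0.00443 without WT 4 to 0.589 without KO B1. The cell was in KO B1, so the fit without KO B1 lacked it. Without WT B1, the lone KO B1 added nothing to the estimate. Tumor markers summed to 11760 to 16030 CPM in WT and 8719 to 11450 CPM in KO in these cells of batch 2, and to 1501 and 1524 CPM in batch 1. Map3k14 was at -0.75 (SE 0.42) and Cd83, a maturation marker, at -0.11 (SE 0.35) in the same cells.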

How the data were processed

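Droplet 3′ libraries of 10 tumor samples were analysed. The deposited values are counts (whole numbers of UMIs) for every gene and droplet barcode on mm10, and the authors had not removed empty droplets. The submitters' processing notes name Cell Ranger 7.1.0. Their later steps and cell labels were not used. A barcode was taken as a cell with 200 to 7000 genes and no more than 10% of its UMIs from mitochondria, the limits in the study's methods. Within each batch, cells were clustered by Leiden at resolution 1 on 2000 variable genes, 30 components and 15 neighbours (scanpy 1.11.5, leidenalg 0.10.2, Python 3.11.15), without the 10 genes. Clusters were named from at least 3 markers 2-fold higher than in reference clusters with 20 CPM added. These naming limits were chosen with the clusters in view. Doublets were not removed. Libraries shared at most 28 cell barcodes.

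UMIs were summed per library and class without Actb, and classes of at least 10 cells per library were tested by edgeR 4.0.16 (quasi-likelihood, TMM, filterByExpr, batch term, Benjamini-Hochberg adjustment, R 4.3.3). Alternatives included DESeq2 1.42.0, no limit on low counts, batch 2 only, no pooled libraries, every library omitted in turn, a block for the replicate number, 500 genes per barcode, resolution 0.5 and Actb kept. Standard errors came from the fold change and F statistic. The script was tested on simulated data. It recovered 75%, 80%, 43.75%, 49% and 79% of genes given a log2 change of 1 in tumor-like, macrophage-like, monocyte-like, dendritic-like and all cells. False calls numbered 4, 6, 1, 12 and 7. In batch 2 monocyte-like sums, 1 UMI of Rela was worth 35.6 CPM in KO 2+3 and 1 UMI of Rel 255 CPM in WT 4. The members and lists were chosen with earlier results of these data known. Named genes were the 10 members and, of the pathway lists, genes called and the 3 largest changes per class, and of called genes the 3 largest rises and falls. Nfkb1 shares annotated positions with Gm43430 on its own strand, Nfkb2 with AC114539.1 and Psd and Il1b with Il1bos on the other strand, so their counts are uncertain to that extent.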

Additional observations from a re-analysis of the deposited data

Results flagged for a closer look

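Of 60 groups of 4 batch 2 libraries examined for a library far from its group, 1 was marked, where chance marks about 1 in 20. Tnfaip3 in all cells of KO 2+3 stood at 48.9 CPM, and the other KO libraries of batch 2 at 18.3 to 22.3 CPM. The same library held 339 macrophage-like, 79 monocyte-like, 185 dendritic-like and 682 T-like cells, more than any other library of batch 2. Of its 264 Tnfaip3 UMIs, 106 were in T-like cells, at 312 CPM against 88.0 to 251 CPM in T-like cells of the other batch 2 libraries, and 102 were in tumor-like cells. Its Tnfaip3 level was 25.7 CPM in tumor-like cells and 235.7 CPM in macrophage-like cells. The part of these cell numbers and class levels in the Tnfaip3 level was not tested.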

How the results depend on the processing

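Over 31 estimates for the 10 genes, 534 alternative values were computed, of which 483 had the direction of the reported value, 51 had the other and 0 passed the threshold (lowest adjusted p 0.483). The causes were not tested. Without the pooled libraries, Tnfaip3 and Nfkbia were -0.024 and -0.14 in tumor-like cells, Nfkb1 was 0.013 in macrophage-like cells, and Il1b and Nfkbia were -0.20 and -0.092 in all cells. In macrophage-like cells Tnfaip3 and Tnf were 0.079 and 0.00064 under DESeq2, Tnfaip3 was 0.25 in batch 2 alone, and Nfkb1 and Tnfaip3 were 0.023 and 0.023 without the limit on low counts. In all cells Cxcl1 was 0.11 under DESeq2, and Tnf was 0.039 in batch 2 alone, 0.010 with the block and 0.00028 with Actb kept. With 1 library left out, ranges that crossed 0 were -0.22 to 0.0053 for Nfkb1, -0.086 to 0.22 for Nfkbia, -0.18 to 0.041 for Rel and -0.099 to 0.19 for Tnfaip3 in tumor-like cells, -0.075 to 0.042 for Nfkb1, -0.19 to 0.017 for Rel, -0.47 to 0.28 for Tnf and -0.21 to 0.28 for Tnfaip3 in macrophage-like cells, -1.18 to 0.47 for Il1b in dendritic-like cells, and -0.35 to 0.69 for Cxcl1, -0.11 to 0.36 for Il1b, -0.065 to 0.18 for Nfkbia, -0.011 to 0.37 for Rel, -0.13 to 0.17 for Tnf and -0.0022 to 0.44 for Tnfaip3 in all cells. A lone batch 1 library then shares its batch with no other and adds nothing to the estimate.

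Counts of all genes called moved from 0 to 38, 10, 2 and 242 in tumor-like, macrophage-like, dendritic-like and all cells without the limit on low counts, to 1 in dendritic-like and 1 in all cells without the pooled libraries, and to 2 in all cells under DESeq2. In monocyte-like cells the count of 1 fell to 0 under DESeq2, in batch 2 alone, without the pooled libraries and at resolution 0.5. Without the limit on low counts it stayed at 1, but the gene called was lower in KO, so the call of Pvt1 was lost there too. With 1 library left out it was 0 to 4 in macrophage-like, 0 to 1 in monocyte-like, 0 to 4 in dendritic-like and 0 to 1 in all cells. The 4 in macrophage-like cells came without either batch 1 library, the 4 in dendritic-like cells without WT 4 or WT 5 (1 to 3 without WT 3, KO 2+3, KO 4 or KO 5+6), and the 1 in all cells without KO 2+3 or KO 4. The monocyte-like call was lost without WT 1, WT 5, KO 1, KO 2+3 or KO 5+6. The limit of 500 genes per barcode was not run in monocyte-like cells, where too few libraries kept 10 cells. Keeping the set-aside cluster as tumor-like, or leaving out the 1 dendritic-like cell with 44 Ccl2 UMIs, alternatives chosen after seeing the data, called 0 genes. Ccl2 in dendritic-like cells, computed under these alternatives after seeing the data, was past the threshold without the limit on low counts (1.85, adjusted p = 0.0420) and without the pooled libraries (2.38, adjusted p = 0.00770), both with that cell kept, and not under DESeq2 (1.89, adjusted p = 0.998) or with the replicate block (1.75, adjusted p = 0.571). Without WT 3, WT 4, WT 5, KO 2+3, KO 4 or KO 5+6 it also passed. Same-numbered libraries did not deviate together (r of -0.15, 0.05, -0.25 and 0.18 over 12541 genes in tumor-like cells), and the replicate block changed no call. The median UMIs per cell limit the immune classes of batch 2: in KO 2+3 they were 366 in macrophage-like and 362 in monocyte-like cells, against 830 in tumor-like cells.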
